A study of Mus musculus with 9 samples.

Results

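Immediate early genes of splenic type 2 conventional dendritic cells (cDC2s), 10 in all, were followed across 9 RNA-seq libraries. They are the zinc-finger transcription factor genes Egr1, Egr2 and Egr3, the orphan nuclear receptor genes Nr4a1, Nr4a2 and Nr4a3, and the early response genes Ier2, Ier5, Btg2 and Zfp36. They were chosen by name as the EGR, NR4A and related early response rows of the deposited count table, in which all 10 are present among 14209 genes. Earlier results of these data were known at that choice, so counts of these genes set beside all genes are descriptive only. All 10 also passed the expression filter that left 12043 genes to test.

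Mice of 3 genotypes on the C57BL/6 strain gave 3 libraries each. The first lacks Gα13, the G protein subunit that activates RhoA: its gene Gna13 is floxed and deleted by a Cre recombinase under the CD11c promoter, so that deletion reaches CD11c-expressing cells and not cDC2s alone. The second lacks CD97, an adhesion G protein-coupled receptor encoded by Adgre5 (Cd97 in the count table), and the third is wild type (WT). The sample genotype given for the Gα13-deficient libraries also names Adgre5 loss, while the series describes them as Gna13 deletion alone. The sources used here do not state whether the CD97-deficient and WT mice carried the Cre, nor age, the way the cells were sorted or any stimulation. No source used here ties the libraries of a group to separate mice, so each p-value reflects the spread among libraries only, and that spread may be technical in part.

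Immediate early genes are transcribed within minutes of a signal without new protein synthesis, and their mRNAs are short-lived. EGR genes are classically driven through ERK signalling, serum response factor (SRF) and its ternary complex factors, which bind at CArG boxes, whereas NR4A genes respond strongly to cyclic AMP through CREB, which binds sequences with a TGACG core, and to calcium. EGR and NR4A proteins then set later transcription in activated immune cells, and Zfp36 and Btg2 act on mRNA decay, so that the group includes both inducers and brakes. The same genes are also known to be induced while tissue is digested to free cells.

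The promoters of Egr2 and the NR4A genes are shown because the EGR and NR4A families classically take different signals. A link between these sequences and the levels below was not tested. RefSeq (GRCm38.p6) windows of 250 bases before a transcript start were available for 7 of the 10 genes. Capitals mark a CArG box, a TGACG core (CGTCA where it lies on the other strand) or an EGR site (GCGGGGGCG or GCGTGGGCG, here CGCCCCCGC on the other strand), each searched on both strands. RefSeq gives 5 windows for Egr2, and the one printed is that of an internal start, at chr10:67537619-67537868, plus strand. The Nr4a1 window, chr15:101266596-101266845, plus strand, also lies before an internal start, and the Nr4a2 window is chr2:57124004-57124253, minus strand. Of the Nr4a3 window the stretch chr4:48045055-48045152, plus strand, is printed, which ends where the first exon begins in GENCODE release M21.
Egr2: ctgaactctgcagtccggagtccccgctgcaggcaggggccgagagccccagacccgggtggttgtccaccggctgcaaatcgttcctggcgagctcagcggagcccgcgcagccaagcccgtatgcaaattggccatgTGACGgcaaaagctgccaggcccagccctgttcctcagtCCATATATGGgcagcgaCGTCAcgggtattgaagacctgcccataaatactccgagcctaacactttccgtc
Nr4a1: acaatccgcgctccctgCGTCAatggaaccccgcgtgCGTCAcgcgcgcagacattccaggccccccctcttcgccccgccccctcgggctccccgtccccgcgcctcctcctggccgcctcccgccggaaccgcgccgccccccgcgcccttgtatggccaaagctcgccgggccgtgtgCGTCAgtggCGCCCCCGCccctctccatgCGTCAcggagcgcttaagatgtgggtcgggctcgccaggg
Nr4a2: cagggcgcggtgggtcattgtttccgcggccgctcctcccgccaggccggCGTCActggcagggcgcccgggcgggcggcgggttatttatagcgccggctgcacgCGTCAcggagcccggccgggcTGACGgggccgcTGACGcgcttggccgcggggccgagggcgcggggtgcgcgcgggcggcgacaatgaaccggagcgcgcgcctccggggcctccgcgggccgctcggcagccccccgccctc
Nr4a3: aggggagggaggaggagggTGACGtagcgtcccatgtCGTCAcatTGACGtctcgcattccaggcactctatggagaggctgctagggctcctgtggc

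The Egr2 stretch holds a CArG box beginning 72 bases before the start, with TGACG cores at 111 and 55 bases. Its most upstream window held none of the motifs searched, the next a CArG box alone, and the last 3, which overlap each other, both motifs. Among 27025 mouse genes with such windows, 1.62% held a CArG box and 19.8% a TGACG core. Of the 7 early response genes with a window, 2 held a CArG box (Egr2 and Zfp36) and 5 a TGACG core (Egr2, Nr4a1, Nr4a2, Nr4a3 and Btg2). The 3 NR4A windows each held 4 TGACG cores, at 233, 213, 69 and 40 bases before the start in Nr4a1, at 200, 144, 123 and 111 in Nr4a2 and at 231, 213, 205 and 147 in Nr4a3. The one at 147 in Nr4a3 lies past the printed stretch, inside the first exon of GENCODE M21. At least 4 cores were present in 44 of the 27025 genes (0.163%), a cut chosen after the NR4A windows had been read. An EGR site was found in 2 of the 7 genes, Nr4a1 (60 bases before the start) and Zfp36 (105 bases), against 3.47% of all genes. The full cyclic AMP response element TGACGTCA was in Btg2 alone of the 7 (1.77% of all genes), where the palindrome counts as 2 cores. The NR4A element AAAGGTCA was in none of the 7 (1.55% of all genes) and the ETS site CCGGAAG was in Zfp36 (7.83% of all genes). A match describes these letters in this window and is not a measured site.

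Total counts per library ran from 5679946 to 13904646. Gna13 averaged 101 ± 11.4 CPM (reads scaled to library size, on the TMM scale used throughout) in Gα13-deficient and 214 ± 23.9 in WT libraries (SD, n = 3 each; log2 fold change -1.09, edgeR adjusted p = 0.000101). Cd97 averaged 668 ± 207 CPM in CD97-deficient and 1235 ± 308 CPM in WT libraries, with no overlap between the groups but no call (log2 fold change -0.89 ± 0.28 SE, edgeR adjusted p = 0.103), and 1128 ± 105 CPM in the Gα13-deficient libraries, which overlapped WT. Exons of Ddx39 and Mir1668 overlap Cd97, and exons of Gm11696 overlap Gna13. The strand setting of the counting is not given, so reads of these genes cannot be told apart. Of 16 cDC2 markers 15 have a row, none at 0 in any library, and their summed level was 28658 to 32138 CPM in Gα13-deficient, 28378 to 29322 CPM in CD97-deficient and 30457 to 32019 CPM in WT libraries. Cd74 alone gave 10034 to 11675 CPM of that sum. In Gα13-deficient against WT cells edgeR called 2 of the 15 higher and 3 lower, with a median log2 fold change of -0.15. In CD97-deficient against WT cells 0 were called, but 13 were below 0, with a median of -0.16 and 6 at an unadjusted p under 0.05. The sex pattern was set by Xist above the summed Y-linked counts, a rule chosen after seeing the data. By it a female pattern was present in 1 of 3 Gα13-deficient, 3 of 3 CD97-deficient and 1 of 3 WT libraries. The planned rule, Xist above the mean Y-linked count, gave a female pattern in every library. The labels give every library the same sequencing lane.

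All 3 EGR genes were lowest on average in the CD97-deficient libraries and highest in the Gα13-deficient ones. Egr1 (chr18:34859823-34864984, mm10), the founding member of the family, had 734, 381 and 401 CPM in Gα13-deficient, 162, 90.4 and 99.8 CPM in CD97-deficient and 459, 339 and 88.8 CPM in WT libraries (replicates 1 to 3). WT replicate 3 lay below all 3 CD97-deficient libraries, and the other two WT libraries lay above them. The log2 fold change was 0.77 ± 0.61 (SE) in Gα13-deficient and -1.34 ± 0.63 in CD97-deficient libraries against WT, and neither passed the threshold of 0.05 (edgeR adjusted p = 0.489 and 0.256).

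Egr2 (chr10:67535475-67542188), which restrains effector responses in T cells and is needed for myelination in nerve, had 51.6, 35.8 and 35.8 CPM in Gα13-deficient, 12.2, 9.08 and 8.49 CPM in CD97-deficient and 30.001, 25.0 and 11.9 CPM in WT libraries. Every Gα13-deficient library exceeded every WT library, while CD97-deficient replicate 1 and WT replicate 3 overlapped. Egr2 fell in CD97-deficient cells, by 1.20 ± 0.32 on the log2 scale, or 2.30-fold (edgeR adjusted p = 0.0444). Against WT its level in Gα13-deficient cells differed by a log2 fold change of 0.85 ± 0.27, which did not pass (edgeR adjusted p = 0.0755). Egr3 (chr14:70077203-70082614), a close relative of Egr2, had 10.8, 5.56 and 5.28 CPM in Gα13-deficient, 3.55, 1.47 and 1.68 CPM in CD97-deficient and 6.76, 7.61 and 2.38 CPM in WT libraries. Only WT replicate 3 came down into the CD97-deficient range, and the Gα13-deficient range crossed that of WT. Its log2 fold change of -1.35 ± 0.50 in CD97-deficient cells did not pass (edgeR adjusted p = 0.111).

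The NR4A genes did not follow a single pattern. Nr4a1 (chr15:101254269-101274795), which encodes Nur77 and is a common reporter of antigen receptor signalling in lymphocytes, had 221, 160 and 135 CPM in Gα13-deficient, 105, 108 and 101 CPM in CD97-deficient and 186, 121 and 97.0 CPM in WT libraries. The CD97-deficient libraries were nearly equal, with the highest 1.08 times the lowest, against 1.65 in Gα13-deficient and 1.92 in WT libraries. The log2 fold change was 0.34 ± 0.26 in Gα13-deficient and -0.37 ± 0.26 in CD97-deficient cells against WT, without a call (edgeR adjusted p = 0.453 and 0.427). Nr4a2 (chr2:57106830-57124003), which encodes Nurr1, a factor of dopamine neurons, was low, at 6.47, 2.09 and 3.71 CPM in Gα13-deficient, 2.72, 1.76 and 1.79 CPM in CD97-deficient and 2.18, 4.35 and 2.38 CPM in WT libraries. All groups overlapped.

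Nr4a3 (chr4:48045153-48086447), which encodes NOR-1 and in mice is needed for dendritic cell migration to lymph nodes, was lower in both knockouts. It had 8.18, 9.56 and 7.14 CPM in Gα13-deficient, 6.86, 10.8 and 8.49 CPM in CD97-deficient and 16.4, 18.2 and 11.6 CPM in WT libraries. All 6 knockout libraries lay below all 3 WT libraries, and it is the one gene of the 10 for which this held. Over all genes, 14% were lower than WT without overlap in Gα13-deficient and 13.5% in CD97-deficient cells. The share lower in both was not counted. The log2 level of Nr4a3 fell by 0.94 ± 0.22 in Gα13-deficient cells (1.92-fold, edgeR adjusted p = 0.0139). In CD97-deficient cells it fell by 0.85 ± 0.22 (1.80-fold, edgeR adjusted p = 0.0318). The knockouts are both set against the same WT libraries.

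Ier2 (chr8:84661331-84662852), a small nuclear early response protein, had 55.8, 34.1 and 39.9 CPM in Gα13-deficient, 20.2, 23.6 and 32.6 CPM in CD97-deficient and 42.1, 38.3 and 27.3 CPM in WT libraries. Both knockout ranges crossed the WT range. Ier5 (chr1:155096361-155099636), linked to heat shock factor activity, had 862, 667 and 806 CPM in Gα13-deficient, 647, 615 and 561 CPM in CD97-deficient and 771, 788 and 643 CPM in WT libraries. It varied least of the 10, and CD97-deficient replicate 1 stood just above WT replicate 3.

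Btg2 (chr1:134075170-134079120), an antiproliferative adaptor of the CCR4-NOT deadenylase, had 525, 341 and 340 CPM in Gα13-deficient, 283, 320 and 287 CPM in CD97-deficient and 553, 402 and 363 CPM in WT libraries. The CD97-deficient libraries lay below all WT libraries, yet the log2 fold change of -0.57 ± 0.20 did not pass (edgeR adjusted p = 0.127). Zfp36 (chr7:28376784-28380253), which encodes tristetraprolin, a protein that binds AU-rich elements in mRNAs such as that of Tnf and speeds their decay, had 1291, 837 and 901 CPM in Gα13-deficient, 597, 519 and 579 CPM in CD97-deficient and 1029, 1003 and 611 CPM in WT libraries. It too was lower in every CD97-deficient library than in any WT library, with a log2 fold change of -0.64 ± 0.23 that did not pass (edgeR adjusted p = 0.142). Exons of an antisense gene, Gm44710, overlap Zfp36, and no source used here gives the strand setting of the counting, so reads of both cannot be told apart.

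**Figure D1:**
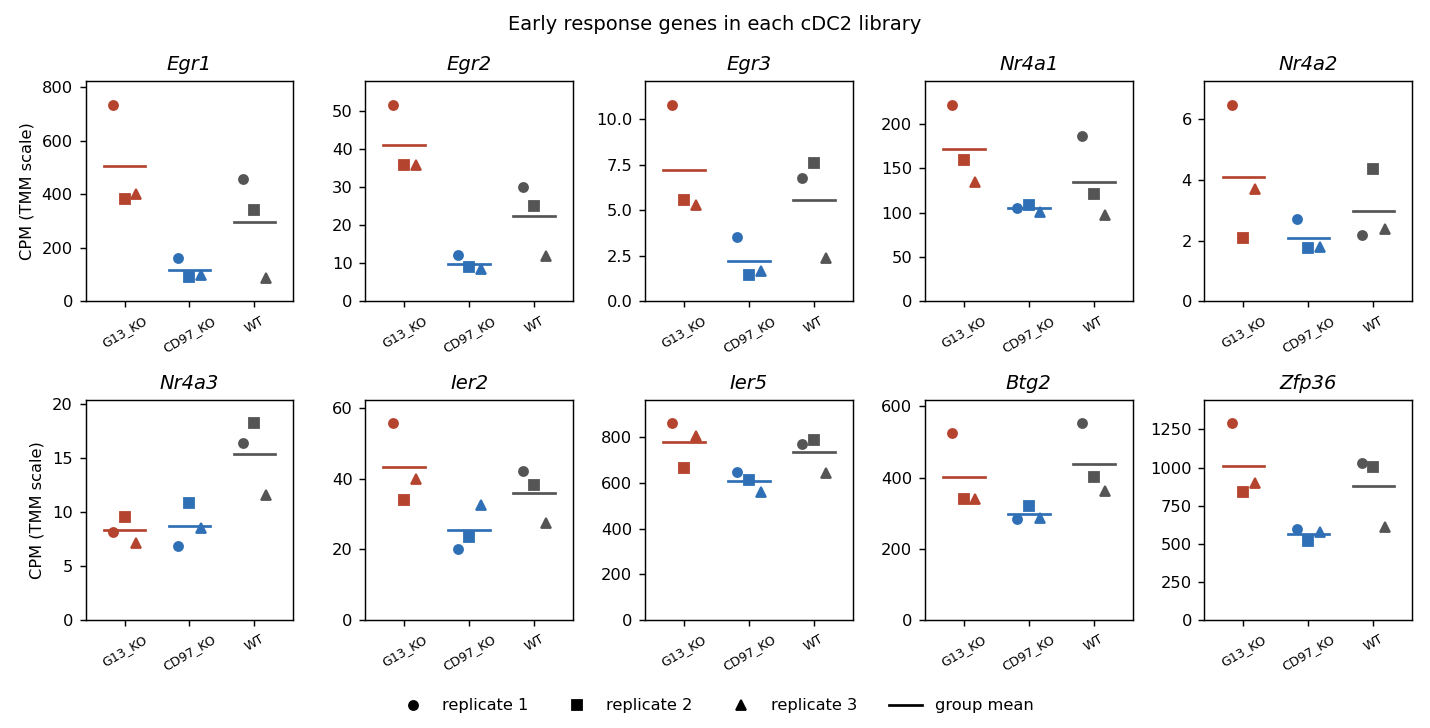
Level of each of the 10 genes in CPM on the TMM scale (vertical axes start at 0 and differ between panels), in Gα13-deficient (G13_KO), CD97-deficient (CD97_KO) and WT libraries; each symbol is a library and each line a group mean. For 8 genes the CD97-deficient libraries all lie below the Gα13-deficient ones, WT replicate 3 (grey triangle) lies low among WT libraries, and Nr4a3 is low in both knockouts.

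Levels between genes were compared per length, as TPM (counts divided by exon length and scaled to the library). In WT libraries the order of mean TPM was Zfp36 (1167 ± 298, SD, n = 3), Ier5 (1031 ± 101), Btg2 (736 ± 157), Egr1 (302 ± 190), Nr4a1 (176 ± 57.9), Ier2 (109 ± 21.8), Egr2 (30.1 ± 12.3), Nr4a3 (11.8 ± 2.55), Egr3 (5.82 ± 2.89) and Nr4a2 (3.37 ± 1.36). Zfp36 and Ier5, Egr1 and Nr4a1, and Egr3 and Nr4a2 overlapped across WT libraries and do not differ beyond their spread, while the other neighbours in that order did not overlap. In CD97-deficient libraries mean Ier5 (869 ± 56.8 TPM) stood above Zfp36 (763 ± 55.1 TPM), and mean Nr4a1 (140 ± 4.42 TPM) above Egr1 (123 ± 40.3 TPM). There the Egr1 range (94.2 to 169 TPM) enclosed that of Nr4a1 (135 to 144 TPM), so these genes do not differ beyond their spread. WT replicate 3 also had Nr4a1 (129 TPM) above Egr1 (92.6 TPM). In Gα13-deficient libraries the first 7 ranks were as in WT, with Zfp36 at 1343 ± 305 TPM and Egr1 at 520 ± 196 TPM. Fewer cells expressing a gene and less of its RNA per cell cannot be told apart in such bulk libraries.

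In CD97-deficient against WT cells, all 10 genes had log2 fold changes below 0, with a median of -0.60 against -0.00 over all genes tested. The 2 that fell were Egr2 and Nr4a3, and 8.49% of all genes were called in this comparison, 3.68% as lower and 4.82% as higher. An unadjusted p under 0.05 was found for 6 of the 10 (Egr2, Egr3, Nr4a3, Ier5, Btg2 and Zfp36), all with lower values, against 12.3% of all genes called lower at that level. Groups without overlap, lower in CD97-deficient cells, were found for 3 genes (Nr4a3, Btg2 and Zfp36), against 13.5% of all genes. DESeq2 called 5 of the 10, adding Egr3, Btg2 and Zfp36, at 12.4% of the genes for which it gave an adjusted p. The remaining values were -0.49 ± 0.47 for Nr4a2, -0.50 ± 0.23 for Ier2 and -0.27 ± 0.10 for Ier5 (edgeR adjusted p = 0.561, 0.204 and 0.12).

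Both calls depended on single libraries. Of 9 fits that each omitted 1 library (leave-one-out), Egr2 was called in 2, with edgeR adjusted p = 0.18 without CD97-deficient replicate 3 and 0.00309 without WT replicate 3, and Nr4a3 in 5, with 0.123 without CD97-deficient replicate 1. With the sex pattern as a term the adjusted p was 0.215 for Egr2 and 0.0565 for Nr4a3, in a design where all 3 CD97-deficient libraries share their pattern with 1 WT library. Of 16 macrophage markers tested, 14 had log2 fold changes above 0 in this comparison, with a median of 0.90 and 2 called lower. None was at 0, and their summed level was 491 to 1825 CPM in CD97-deficient and 442 to 1396 CPM in WT libraries. With the mean log2 CPM of these markers (the macrophage marker level) as a term, the edgeR adjusted p was 0.0489 for Egr2 and 0.0526 for Nr4a3.

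In Gα13-deficient against WT cells, Nr4a3 alone of the 10 was called, as lower, at a background of 11.3% of genes called, 5.46% as lower and 5.89% as higher. Log2 fold changes were above 0 for 8 of the 10 and the median was 0.28, against -0.01 over all genes. Egr2 was the one gene higher without overlap (15.5% of all genes) and Nr4a3 the one lower (14% of all genes). Same-numbered libraries met the pairing rule given with the processing, at correlations of 0.111 to 0.179, but no label ties them together. Between CD97-deficient and WT libraries, pairs of unlike number reached as much (up to 0.216). With the number as a block, Egr2 (log2 fold change 0.92, edgeR adjusted p = 0.0156) and Nr4a1 (0.37, edgeR adjusted p = 0.0372) were called higher beside Nr4a3 (-0.88, edgeR adjusted p = 0.0207). DESeq2 called Egr2 and Nr4a3 in the same directions, at 14% of genes.

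None of the other differences from WT was called in this comparison. They were 0.30 ± 0.39 for Egr3, 0.52 ± 0.40 for Nr4a2, 0.26 ± 0.22 for Ier2, 0.08 ± 0.10 for Ier5, -0.13 ± 0.20 for Btg2 and 0.20 ± 0.23 for Zfp36 on the log2 scale. The 95% interval for Egr1 reached from -0.43 to 1.97, so changes of either sign remain possible there. Nr4a3 was called in 8 of the 9 leave-one-out fits, with edgeR adjusted p = 0.068 without Gα13-deficient replicate 3. Markers of plasmacytoid dendritic cells moved with the Gα13-deficient group: 8 of 8 had log2 fold changes above 0, with 2 called, none was at 0, and their summed level was 221 to 333 CPM in Gα13-deficient, 171 to 198 CPM in CD97-deficient and 154 to 208 CPM in WT libraries. Of 8 monocyte markers tested 2 were called higher and 5 were above 0, with a median of 0.52. The 9 with a row summed to 391 to 464 CPM in Gα13-deficient, 264 to 464 CPM in CD97-deficient and 238 to 433 CPM in WT libraries, and F13a1 was at 0 in 2 Gα13-deficient and 2 WT libraries. The part of either marker list in the result was not tested.

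Set directly against each other, the knockouts had their largest folds among the 10 in the EGR genes, although none of the 10 passed the adjusted threshold in a comparison with 5 calls over all genes (0.0415%). Log2 fold changes were above 0 for 9 of the 10 and the median was 0.80, against -0.00 over all genes. Egr1 was 4.30-fold higher on average in Gα13-deficient than in CD97-deficient cells (log2 fold change 2.10 ± 0.64, edgeR adjusted p = 0.666), Egr2 4.13-fold (2.05 ± 0.30, edgeR adjusted p = 0.0718) and Egr3 3.14-fold (1.65 ± 0.47, edgeR adjusted p = 0.456). All but Nr4a2 and Nr4a3, 8 of the 10, were higher in every Gα13-deficient than in any CD97-deficient library, as were 7.16% of all genes. An unadjusted p under 0.05 with higher values was found for 8 genes, all but Nr4a3 and Btg2, against 3.43% of all genes (6.36% in either direction).

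The smaller differences between the knockouts were 1.002 ± 0.42 for Nr4a2, 0.84 ± 0.23 for Zfp36, 0.77 ± 0.23 for Ier2, 0.71 ± 0.26 for Nr4a1, 0.44 ± 0.20 for Btg2 and 0.36 ± 0.10 for Ier5. Nr4a3 stood at -0.10 ± 0.24, with a 95% interval from -0.56 to 0.37 on the log2 scale. DESeq2 called Egr2 and Zfp36 (2 of 10, against 0.38% of genes). Egr2 passed in edgeR without WT replicate 3 (adjusted p = 0.000179) and without WT replicate 1 (adjusted p = 0.0202), libraries that enter this comparison only through the shared estimate of spread.

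**Figure D2:**
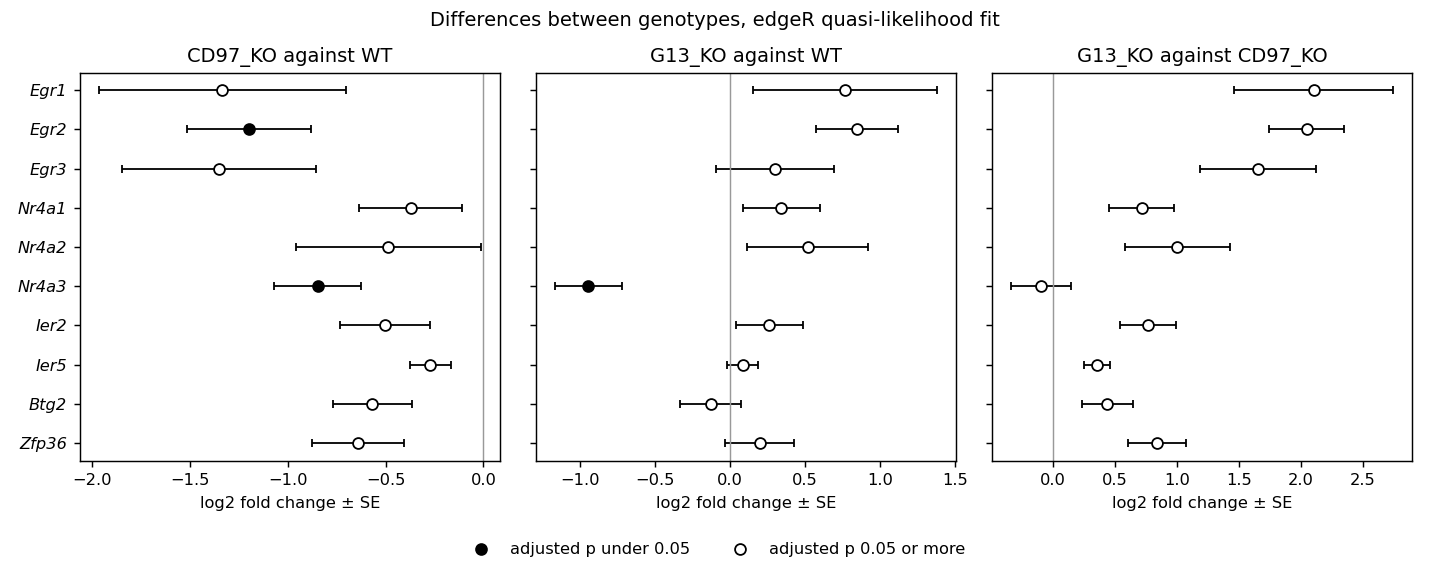
Log2 fold change ± SE of each gene in CD97-deficient against WT, Gα13-deficient against WT and Gα13-deficient against CD97-deficient cells, from 1 edgeR fit of 9 libraries; filled points have an adjusted p under 0.05 and axes differ between panels. All 10 points lie below 0 for CD97-deficient against WT, and Egr1, Egr2 and Egr3 lie between 1.65 and 2.10 for the direct comparison of the knockouts.

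The differences within a group were as large as those between groups for several genes. Gα13-deficient replicate 1 was the highest of all 9 libraries for 8 of the 10 genes, all but Nr4a3 and Btg2. WT replicate 3 was the lowest WT library for 9 of the 10, all but Nr4a2, and for 7 genes it did not exceed the highest CD97-deficient library. Averaged over the 10 genes, the z-score of log2 CPM was 1.34, 0.13 and 0.32 in Gα13-deficient, -0.75, -0.92 and -0.97 in CD97-deficient and 0.81, 0.64 and -0.59 in WT libraries. The 3 CD97-deficient libraries were thus close together, while the WT libraries spanned most of the range.

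The spread was largest in the EGR genes and Nr4a2. The biological coefficient of variation was 0.375 for Egr1, above that of 94.9% of tested genes, 0.359 for Egr3, 0.33 for Nr4a2 and 0.236 for Egr2, against a median of 0.138 over all genes. Ier5 had the lowest of the 10, at 0.11. Without WT replicate 3, 4 genes were called lower in CD97-deficient cells (Egr2, Egr3, Nr4a3 and Zfp36), and the log2 fold change of Egr1 was -1.76 (edgeR adjusted p = 0.067). Over all genes that fit called 874 in this comparison, in either direction, against 1023 with all 9 libraries. Without Gα13-deficient replicate 1 the value of Egr1 against CD97-deficient cells was 1.73 and that of Egr2 was 1.85.

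**Figure D3:**
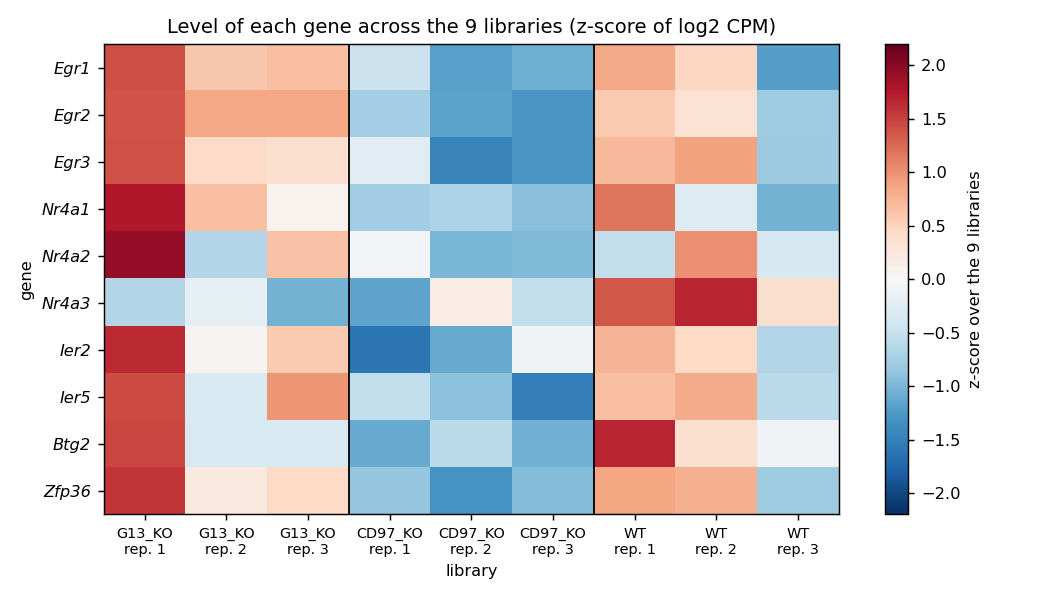
Z-score of log2 CPM of each of the 10 genes (rows) over the 9 libraries (columns, with lines between Gα13-deficient, CD97-deficient and WT); red is above and blue below the gene's own mean. Gα13-deficient replicate 1 is the reddest column, the 3 CD97-deficient columns and WT replicate 3 are mostly blue, and the Nr4a3 row runs against the others.

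Profiles over the 9 libraries show how far the genes moved together. By the root mean square difference of z-scores, where 0 is an identical profile, the nearest pairs were Egr1 with Egr2 (0.233) and Egr3 with Zfp36 (0.266). Nr4a3 was the farthest of the 10 from each of the others except Btg2, at 1.16 to 1.38. Its nearest was Btg2, at 0.934. All genes were compared over the same 9 libraries, which come from 3 genotypes and differ in depth.

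The balance within the NR4A family set the Gα13-deficient libraries apart. The ratio of Nr4a1 to Nr4a3 counts in a library, which does not depend on scaling and was chosen after the values had been seen, was 27.1, 16.7 and 18.8 in Gα13-deficient, 15.3, 9.97 and 11.8 in CD97-deficient and 11.4, 6.64 and 8.40 in WT libraries. All Gα13-deficient libraries exceeded all others, and CD97-deficient and WT libraries overlapped. Nr4a1 made up 94.8% to 95.6% of summed NR4A TPM in Gα13-deficient, 93.2% to 94.3% in CD97-deficient and 89.3% to 94.2% in WT libraries. The ratio of Egr1 to Egr2 counts was 14.2, 10.6 and 11.2 in Gα13-deficient, 13.3, 9.95 and 11.8 in CD97-deficient and 15.3, 13.6 and 7.47 in WT libraries. All groups overlapped in it, and WT replicate 3 had the lowest ratio.

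**Figure D4:**
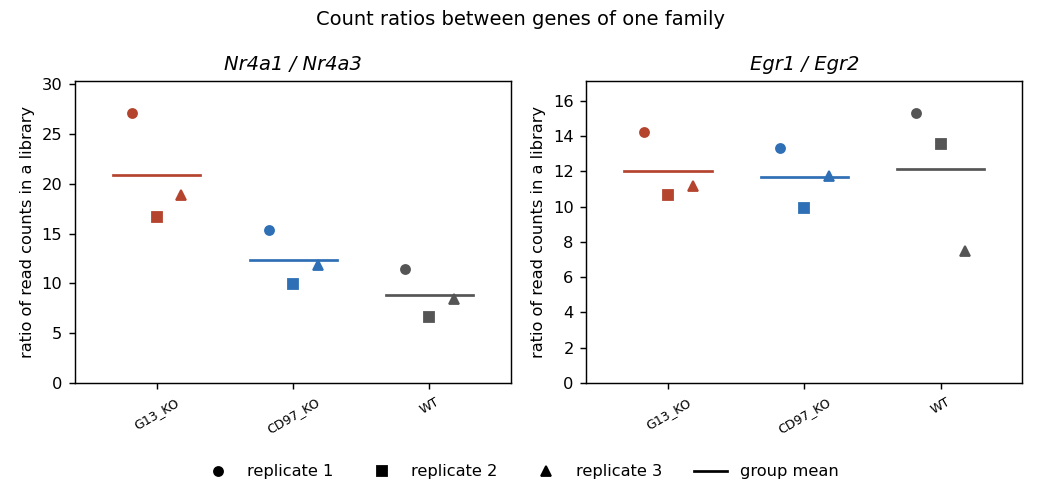
Ratio of read counts in each library, Nr4a1 over Nr4a3 (left) and Egr1 over Egr2 (right), in Gα13-deficient, CD97-deficient and WT libraries; symbols are libraries, lines are group means and axes start at 0. The lowest Gα13-deficient Nr4a1 to Nr4a3 ratio, 16.7, exceeds the highest CD97-deficient one, 15.3, while the Egr1 to Egr2 ratios overlap.

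Other immediate early genes were read beside the 10. Of 34 tested from a list of 37, 4 fell and none rose in CD97-deficient against WT cells, where 3.68% of all genes were called lower and 4.82% higher. The median log2 fold change was -0.54, against -0.00 over all genes, and 29 of the 34 values were below 0. Those named by rule were Nfkbiz, a nuclear IκB protein (-0.76 ± 0.11, edgeR adjusted p = 0.00111), Ppp1r15a, a stress phosphatase subunit (-0.71 ± 0.17, 0.0223), and Gadd45b, a stress sensor (-0.74 ± 0.20, 0.043). Ppp1r15a was called in 5 and Gadd45b in 3 of the 9 leave-one-out fits, and Ppp1r15a lost its call with the sex pattern as a term (edgeR adjusted p = 0.182). In Gα13-deficient against WT cells 2 rose and 2 fell, a share near the 11.3% of all genes called there, with a median of 0.06. Klf4, a zinc-finger factor of myeloid cells, rose (0.92 ± 0.11, edgeR adjusted p = 0.000234) and Gadd45b fell (-1.005 ± 0.21, 0.00843). Between the knockouts none of the 34 passed in edgeR. An unadjusted p under 0.05 was found there for 16 (6.36% of all genes), and DESeq2 called 6 (0.38% of all genes). Of the 34, 28 were above 0 between the knockouts and the median was 0.56.

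Klf4 and Nfkbiz show that the list, like the 10 genes, holds more than one pattern. Klf4 had 103, 94.7 and 83.0 CPM in Gα13-deficient, 60.5, 59.3 and 65.9 CPM in CD97-deficient and 46.6, 52.7 and 48.4 CPM in WT libraries. It was thus highest in Gα13-deficient cells and lowest in WT, with no overlap between any groups. Nfkbiz had 296, 247 and 236 CPM in Gα13-deficient, 183, 179 and 166 CPM in CD97-deficient and 341, 287 and 264 CPM in WT libraries, lower in all CD97-deficient libraries than in any other. Both calls against WT, Klf4 in Gα13-deficient and Nfkbiz in CD97-deficient cells, were made in each of the 9 leave-one-out fits.

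Genes upstream of the EGR and NR4A promoters gave no edgeR calls. None of 21 ERK, SRF and ternary complex factor genes and none of 21 CREB, MEF2 and NFAT pathway genes passed in any of the 3 comparisons, and their medians lay between -0.05 and 0.04. At an unadjusted p under 0.05 there were 0 to 1 of the first list and 2 to 3 of the second per comparison, and DESeq2 called 1 of the first, in CD97-deficient against WT cells. There DESeq2 called 12.4% of all genes. The smallest p-values belonged to Mapk3, which encodes the kinase ERK1 (0.42 ± 0.13 in CD97-deficient against WT, edgeR adjusted p = 0.0553), and Crem, a cyclic AMP responsive modulator (-0.92 ± 0.29, 0.0628). Next in each list were the kinase gene Braf (-0.16 ± 0.08 in Gα13-deficient against WT, edgeR adjusted p = 0.253) and Ppp3r1, which encodes the calcineurin regulatory subunit (-0.29 ± 0.10, 0.0677). Among 14 EGR and NR4A cofactor genes, Trim28 rose in Gα13-deficient against WT cells (0.37 ± 0.11, edgeR adjusted p = 0.0449). It was called in 1 of the 9 leave-one-out fits, and neither with the replicate block (edgeR adjusted p = 0.0918) nor with the sex pattern as a term (0.0509). None of the 14 passed in edgeR in CD97-deficient against WT cells (4 at an unadjusted p under 0.05, 3 called by DESeq2) or between the knockouts (1 and 0). Between the knockouts 6.36% of all genes had an unadjusted p under 0.05 and DESeq2 called 0.38%. These are mRNA levels of pathway parts, not their activity.

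Among the genes that act with Btg2 and Zfp36, their paralogues Btg1 and Zfp36l1 fell. Btg1, an adaptor like Btg2, had 740, 478 and 629 CPM in Gα13-deficient, 460, 532 and 540 CPM in CD97-deficient and 1005, 961 and 917 CPM in WT libraries. It fell by 0.64 ± 0.13 in Gα13-deficient cells (edgeR adjusted p = 0.00921) and by 0.91 ± 0.13 in CD97-deficient cells (edgeR adjusted p = 0.00201), and both calls were made in each of the 9 leave-one-out fits. Zfp36l1, which also binds AU-rich elements, fell by 0.71 ± 0.17 in CD97-deficient cells (edgeR adjusted p = 0.0282), a call made in 5 of those 9 and lost with the sex pattern as a term (adjusted p = 0.113). These were the only edgeR calls among 20 CCR4-NOT, BTG/TOB and tristetraprolin family genes tested, 2 in CD97-deficient and 1 in Gα13-deficient against WT cells. Over all genes 8.49% were called in CD97-deficient cells (3.68% lower) and 11.3% in Gα13-deficient cells (5.46% lower). None of the 20 passed between the knockouts (3 at an unadjusted p under 0.05, 0 by DESeq2, against 6.36% and 0.38% of all genes).

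Of 13 tested genes whose mRNAs carry AU-rich elements and are known to be bound by tristetraprolin, 4 fell and 1 rose in Gα13-deficient, and 3 fell and 1 rose in CD97-deficient cells, against WT. Over all genes 5.46% were called lower and 5.89% higher in Gα13-deficient cells, and 3.68% and 4.82% in CD97-deficient cells. Tnf, the inflammatory cytokine gene, had 53.5, 38.1 and 38.9 CPM in Gα13-deficient, 34.1, 29.7 and 33.3 CPM in CD97-deficient and 85.7, 63.6 and 56.2 CPM in WT libraries, below WT in all 6 knockout libraries. It fell by 0.66 ± 0.16 in Gα13-deficient (edgeR adjusted p = 0.0202) and by 1.09 ± 0.17 in CD97-deficient cells (edgeR adjusted p = 0.00216). Il1b, another cytokine gene, fell by 0.81 ± 0.12 in Gα13-deficient and by 0.82 ± 0.12 in CD97-deficient cells (edgeR adjusted p = 0.00118 and 0.00167). Cd274, which encodes PD-L1, fell by 0.34 ± 0.08 in Gα13-deficient cells (edgeR adjusted p = 0.0166). Bcl2, a survival gene, rose by 0.76 ± 0.19 in Gα13-deficient and by 0.68 ± 0.19 in CD97-deficient cells (edgeR adjusted p = 0.0214 and 0.045). In CD97-deficient cells Bcl2 was called in 1 of the 9 leave-one-out fits, with edgeR adjusted p = 0.218 when the sex pattern was a term. In Gα13-deficient cells Tnf and Bcl2 were each called in 6 and Cd274 in 8 of the 9. The other genes behind these counts, named after their values were seen, were Mcl1, a survival gene, in Gα13-deficient cells (-0.37 ± 0.11, edgeR adjusted p = 0.0491) and Ccl4, a chemokine gene, in CD97-deficient cells (-2.66 ± 0.69, edgeR adjusted p = 0.0472).

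Heat shock genes that are induced by tissue dissociation were read beside the immediate early genes. None of 12 tested passed in edgeR in any comparison, 0 to 1 had an unadjusted p under 0.05, and DESeq2 called 1, in Gα13-deficient against WT cells. There DESeq2 called 14% of all genes. Between the knockouts all 12 had log2 fold changes above 0, with a median of 0.47, and the medians were 0.06 in Gα13-deficient and -0.31 in CD97-deficient cells against WT. Hspe1, a mitochondrial chaperonin gene, averaged 63.9 ± 5.41 CPM in Gα13-deficient, 46.1 ± 2.02 CPM in CD97-deficient and 43.9 ± 14.2 CPM in WT libraries, and with the replicate block it was called higher in Gα13-deficient against WT cells (edgeR adjusted p = 0.0379; 0.0734 without it). Dnajb4, a co-chaperone gene, was next by p, at -0.68 ± 0.37 in CD97-deficient against WT cells (edgeR adjusted p = 0.287). The part of cell handling in the early response differences was not tested.

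Beyond the lists, the 6973 genes with a mean log2 CPM of at least 4 were searched for profiles over the 9 libraries most like those of the 10. Jun was the nearest to both Egr1 (0.172) and Egr2 (0.205), and Fos was next to Egr1 (0.227). Jun and Fos encode subunits of the AP-1 transcription factor. Per1, a clock gene, was nearest to Nr4a1 (0.23), Ppp1r15a (0.241) and the phosphatase gene Dusp1 (0.25) to Zfp36, and the chemokine gene Ccl3 to Egr3 (0.282). Dusp1 was also nearest to Ier2 (0.364), Mib2 to Btg2 (0.311), Ccl9 to Ier5 (0.306) and Ccr9 to Nr4a2 (0.34). Second nearest were Mbnl2 to Egr2 (0.317), Ncor1 to Egr3 (0.296), Tagap to Nr4a1 (0.298), Pcnp to Nr4a2 (0.365), Foxn3 to Ier2 (0.379), Gmeb2 to Ier5 (0.315) and Bcor to Btg2 (0.315).

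Nr4a3 had its own neighbours, Phf21a (0.204) and Slco5a1 (0.212), and neither was among those of the other 9 genes. The genes nearest to the mean profile of the 10 were Ppp1r15a, Dusp1, Ap1s2, Frmd4a, Zfp36l2 and Pot1b, at 0.255 to 0.35. Fos averaged 233 ± 81.8 CPM in Gα13-deficient, 50.7 ± 16.4 CPM in CD97-deficient and 90.6 ± 58.9 CPM in WT libraries (SD, n = 3 each). Jun averaged 335 ± 83.6 CPM in Gα13-deficient, 134 ± 19.9 CPM in CD97-deficient and 201 ± 80.2 CPM in WT libraries. As for Egr1, neither was called in any of the 3 comparisons.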

How the data were processed

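RNA was sequenced from splenic cDC2s of Gα13-deficient, CD97-deficient and WT mice, 3 libraries each. The authors deposited whole-number counts per gene symbol. STAR, HTSeq, DESeq2 and mm10 are named without versions or roles in the submitters' processing notes, and the preparation followed standard Illumina protocols per the labels. The table holds 14209 genes, none with a total under 10 counts, so genes below that appear to have been left out. Groups came from sample titles, and WT columns were matched through source names, which number them differently from the titles.

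Counts were tested in edgeR 4.0.16 (R 4.3.3) by quasi-likelihood F-tests with TMM factors, the default expression filter and robust estimation, all 9 libraries in 1 fit, with Benjamini-Hochberg adjustment over 12043 genes and a threshold of 0.05. Standard errors come from the F statistic, and intervals span 1.96 of them. TPM used exon lengths of GENCODE M21, matched for 14015 symbols (12797 directly and 1218 through a synonym).

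The 10 genes and all lists were chosen with earlier results of these data known. All 10 are named, with up to 4 called genes per list by smallest p (2 where none passed) and, per gene, the 2 most like profiles. Genes called but beyond that rule were Dusp2, Dusp4, Klf2, Ccl4 and Mcl1, whose values are given as chosen after they were seen. A result for 1 cofactor gene is not reported here. Alternatives, 18 per result, were RLE factors, library totals, no filter, the legacy quasi-likelihood method, sex pattern, macrophage marker level, only the 2 groups, a replicate block, each library left out, and DESeq2 1.42.0. The planned sex rule, Xist above the mean Y-linked count, put all libraries in 1 class, the female one, and could not be fitted. Xist above the summed Y-linked counts was used instead, chosen after seeing the data, as was the legacy method.

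Same-numbered Gα13-deficient and WT libraries deviated from their group means together (correlation over genes 0.111 to 0.179 for 3 of 3 pairs, against -0.12 to -0.0207 for other numbers), so the blocked values are given there. Deviations from a group mean sum to 0 over its 3 libraries, so positive same-numbered pairs force the others negative on balance. The negative range is thus no separate evidence of pairing. The labels name no shared animal or day. In CD97-deficient and WT libraries 0 of 3 same-numbered pairs exceeded 0.1, but 4 of 6 pairs of other numbers did, up to 0.216. A correlation above 0.1 thus also arose without a shared number. In the knockouts 0 of 3 same-numbered pairs exceeded 0.1.

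Depth was 5679946 to 13904646 counts, at which 3 counts equal 0.216 to 0.528 CPM.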

Additional observations from a re-analysis of the deposited data

How the results depend on the processing

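Over 18 alternatives and 3 comparisons, 489 of the log2 fold changes of the 10 genes kept their direction and their side of the threshold, 23 gained a call, 19 lost one and 9 changed sign. The count of genes called in CD97-deficient against WT cells, 2, was 1 without the expression filter (Nr4a3), 0 with the sex pattern as a term, 1 with the macrophage marker level as a term (Egr2), 1 with only the 2 groups in the fit (Btg2), 1 with the replicate block (Egr2) and 5 with DESeq2, and 0 to 4 when each library was left out. In Gα13-deficient against WT cells the count of 1 was 2 with library totals (Egr2 and Nr4a3), 3 with the replicate block and 2 with DESeq2, and 0 to 2 when each library was left out. Between the knockouts the count of 0 was 1 with library totals, 1 with the macrophage marker level and 1 with only the 2 groups (Egr2 each time), 4 with the replicate block (Egr1, Egr2, Egr3 and Zfp36) and 2 with DESeq2, and 0 to 1 when each library was left out. The causes were not tested.

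Sign changes came in values near 0. When each library was left out in turn, the log2 fold change in Gα13-deficient against WT cells ran from -0.11 to 0.55 for Egr3, from -0.0019 to 0.19 for Ier5, from -0.37 to 0.073 for Btg2 and from -0.020 to 0.32 for Zfp36, and between the knockouts from -0.24 to 0.083 for Nr4a3. Egr3, Ier5 and Zfp36 were below 0 without WT replicate 3, and Egr3 and Zfp36 without Gα13-deficient replicate 1. Btg2 was above 0 without WT replicate 1. Between the knockouts Nr4a3 was above 0 without Gα13-deficient replicate 3, without CD97-deficient replicate 2, and, at 0.16, with the sex pattern. Replicate numbers did not pair CD97-deficient with WT libraries (correlations -0.301 to 0.0594) or the knockouts with each other (-0.0731 to 0.0112), so the block there shares only a number.

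Over all genes, the calls in CD97-deficient against WT cells were 1023 in the fit reported, 213 with the sex pattern, 599 with the macrophage marker level, 742 with the replicate block and 1320 with DESeq2. Between the knockouts they were 5, 3, 15, 66 and 54 in that order, and in Gα13-deficient against WT cells 1366, 1362, 1252, 1165 and 1560. Macrophage markers, 16 of 17 with a row, summed to 615 to 988 CPM in Gα13-deficient, 491 to 1825 CPM in CD97-deficient and 442 to 1396 CPM in WT libraries.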

Other observations

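Other members of the immediate early list are given here, chosen after their values were seen. Fosb, an AP-1 subunit gene, averaged 144 ± 57.8 CPM in Gα13-deficient and 24.0 ± 7.19 CPM in CD97-deficient libraries (SD, n = 3 each; log2 fold change 2.58 ± 0.63, edgeR adjusted p = 0.529, not called). Ptgs2, which encodes cyclooxygenase-2, averaged 66.2 ± 22.3 CPM in Gα13-deficient and 20.6 ± 10.6 CPM in CD97-deficient libraries (1.67 ± 0.74, edgeR adjusted p = 0.796, not called). Dusp4, a phosphatase gene of the ERK pathway, differed by -1.88 ± 0.54 in Gα13-deficient against WT cells (edgeR adjusted p = 0.0359). Its level was near the floor, at 0.56 ± 0.30 CPM in Gα13-deficient and 2.16 ± 0.49 CPM in WT libraries. Klf2, a zinc-finger factor, differed by 0.69 ± 0.19 in Gα13-deficient against WT cells (edgeR adjusted p = 0.0405). Dusp2, another such phosphatase gene, differed by -0.57 ± 0.15 in CD97-deficient against WT cells (edgeR adjusted p = 0.0347).

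Summed markers of other cells were low beside those of cDC2s. B cell markers, 6 of 8 with a row, summed to 42.9 to 62.9 CPM in Gα13-deficient, 57.9 to 106 CPM in CD97-deficient and 53.3 to 67.3 CPM in WT libraries. T cell markers, 7 of 8 with a row, summed to 54.6 to 65.7 CPM in Gα13-deficient, 54.1 to 59.8 CPM in CD97-deficient and 44.6 to 65.0 CPM in WT libraries.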
